A study of Mus musculus with 3 samples.

Results

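The genes described here mark the ureteric epithelium and its differentiation into collecting duct and urothelium. They are Tfcp2l1 (named Tcfcp2l1 on the array), Gata3, Elf3, Calb1, Mal, Aqp3 and Upk3a. Their probes were taken as all non-control probes that carry one of these names, which gave 7 of 27745 gene names, 11 of 41174 probes and 20 of 43379 spots.

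The ureteric bud grows out of the Wolffian duct and branches within the metanephric mesenchyme. Its tips keep dividing and branching, whereas the stalks behind them become the collecting ducts, whose principal cells take up water and sodium and whose intercalated cells handle acid and base. The lower part of the same duct is linked to the ureter, which is lined by urothelium. Tfcp2l1, Gata3 and Elf3 are transcription factors of this epithelium, whereas Calb1, Mal, Aqp3 and Upk3a encode proteins that its cells use.

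RNA was prepared from kidney rudiments of C57BL/6 mouse embryos at E12.5, from 3 pools of Fgfrl1-/- rudiments and 3 pools of wildtype rudiments, with 6 to 9 rudiments in a pool. Fgfrl1 encodes a receptor of the fibroblast growth factor receptor family, and Fgfrl1-/- embryos lack it in every tissue, not only in the ureteric bud. Both genotypes were littermates, and a rudiment holds ureteric epithelium, mesenchyme, stroma and vessels together, so that fewer cells of a type and less RNA per cell cannot be told apart. Each array compared 1 Fgfrl1-/- pool labelled with Cy3 with 1 wildtype pool labelled with Cy5, and since the dyes were swapped on 0 arrays, an effect of the dye and of the genotype cannot be told apart.

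Most of these genes have 1 probe, but Tfcp2l1 has 4 and Mal has 2. The first 30 of the 60 bases of these probes are shown, because the probes of 1 gene gave different values and it is these letters that tell them apart. They are written as the files give them, and the capitals mark AATAAA, the hexamer that commonly precedes the site where a messenger RNA is cut and polyadenylated.
Tfcp2l1 probe A_52_P175376: gtacctgaAATAAAgcatattttgcacttg
Tfcp2l1 probe A_52_P20867: tatacctgactgcatggaaacggggtcacc
Tfcp2l1 probe A_52_P516473: gtagtgggagagtctagtttcatcctttta
Tfcp2l1 probe A_52_P63232: ctcatggaccactactgtgtattctcattt
Mal probe A_51_P499071: gagaatctgcaaagtcagacgttctgctag
Mal probe A_52_P562661: tcactagctgatgttttattctccaacaaa

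The letters AATAAA stood in 1 of the 11 probes, A_52_P175376 of Tfcp2l1, where they took positions 9 to 14 from the 5′ end, and in 4.78% of all probes (1967 of 41174). Read on the other strand (TTTATT), the hexamer stood in the Gata3 probe and in A_52_P562661 of Mal, and in 4.25% of all probes. These matches describe the probes and do not show a site that is used.

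For all values below, the log2 ratio is that of Fgfrl1-/- over wildtype after loess normalization. A normalized signal is the log2 brightness of 1 pool. For it, the average signal of both channels was also quantile normalized between arrays, which leaves the ratios as they are. A probe was taken to pass where limma's fit across all probes, with Benjamini-Hochberg adjustment, gave it an adjusted p below 0.05. The probe for Fgfrl1 itself was lower on each array. Its log2 ratios of -1.22, -1.51 and -1.83 averaged -1.52 ± 0.31 (SD, n = 3 arrays, adjusted p = 0.0332). Whether this probe lies in the deleted part of the gene is not given in the sources used here. Arrays 2 and 3 shared a slide, and array 1 was on a slide of its own. Pearson's r across all probes, which are not independent replicates, was 0.713 between the arrays of 1 slide (2 and 3) and 0.106 and 0.222 between array 1 and each of them. Between 57.1% and 80.1% of all probes were well above background, at all their spots, in a channel of an array. Of the 11 probes described here, 9 were so in both channels of all arrays. Precision is limited throughout by having 3 arrays.

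Of the 11 probes, 1 passed the test as higher in the Fgfrl1-/- kidneys, beside 0.289% of all probes, and 0 were lower, beside 0.398%. The one that passed was the brightest probe of Tfcp2l1, a gene that was not higher by the paper's qPCR at E12.5. The paper had taken Tfcp2l1 to qPCR because it was higher on these same arrays. The 7 genes were chosen with earlier results of these data known, so the counts given here are not independent of that choice. At an unadjusted p below 0.05, limma's test gave 8 of the 11 as higher, beside 7.69% of all probes, and 0 as lower, beside 8.20%. On all 3 arrays, 8 of the 11 probes had a positive ratio, beside 19.0% of all probes, and 1, that of Upk3a, which was below background, a negative one, beside 19.2%. The 3 Fgfrl1-/- signals did not overlap the 3 wildtype signals for 4 of the 11 probes, beside 14.0% of all probes. These were the probes of Calb1 and Gata3, and A_52_P175376 and A_52_P63232 of Tfcp2l1, the last with a ratio of 0.12 (limma's adjusted p = 0.487). The median log2 ratio of the 11 probes was 0.38, against 0.00366 over all probes. By array it was 0.14, 0.44 and 0.54. With each gene counted once, by its brightest probe, the median of the 7 genes was 0.37, and 0.093 when arrays were centred on their median in place of loess.

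**Figure D1:**
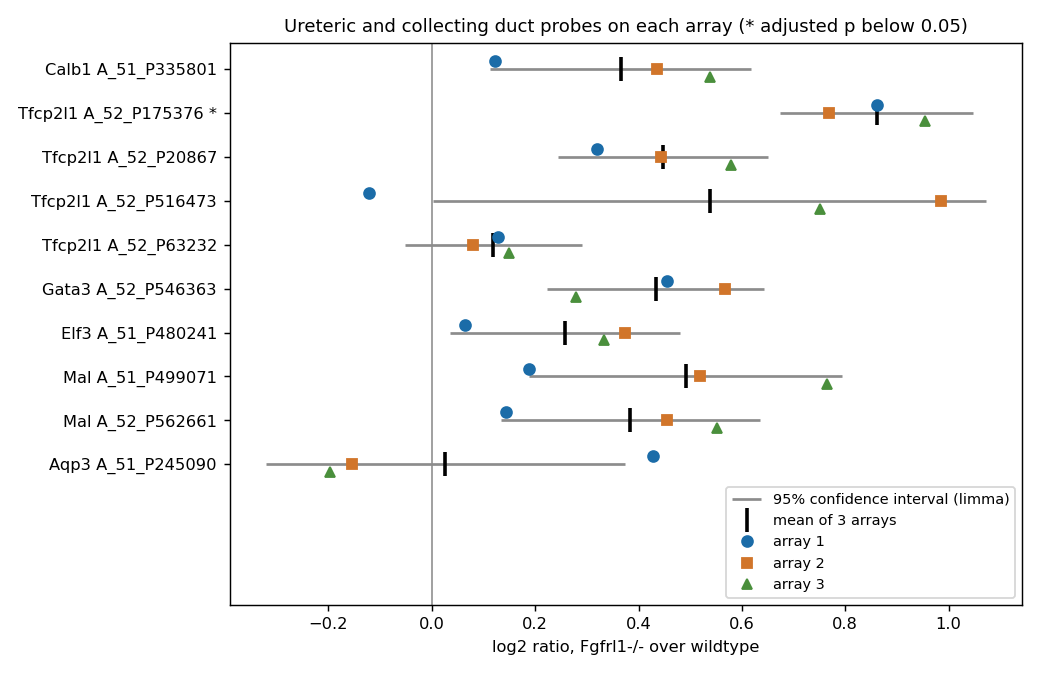
Log2 ratio of Fgfrl1-/- over wildtype (horizontal axis) for each of the 10 probes above background on at least 1 array (rows). Symbols are the 3 arrays, black bars the mean and grey lines the 95% confidence interval from limma. A_52_P175376 of Tfcp2l1, marked with an asterisk, lies between 0.77 and 0.95 on the 3 arrays, and the array 1 values of Calb1, Mal and Elf3 lie to the left of those of arrays 2 and 3.

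Tfcp2l1 encodes a transcription factor of the grainyhead family that collecting ducts need to mature. Its probe A_52_P175376, on chromosome 1 of mm8 from 120512615 to 120512674, had normalized log2 signals of 10.70, 11.11 and 11.18 in the Fgfrl1-/- pools and of 9.84, 10.34 and 10.22 in the wildtype pools. Every Fgfrl1-/- pool was above every wildtype pool. The log2 ratios were 0.86, 0.77 and 0.95, with a mean of 0.86 ± 0.093 (SD, n = 3, 95% confidence interval 0.67 to 1.05, adjusted p = 0.0336). This is a 1.82-fold higher signal, and among the 11 probes it was the largest mean. The paper's qPCR at E12.5 gave Tfcp2l1 no higher level in the Fgfrl1-/- kidneys than in the wildtype kidneys. The call was lost in 9 of 17 alternatives. These included median centring (0.59, adjusted p = 0.297), leaving out array 2 or array 3, and the deposited log2 table (0.88, adjusted p = 0.0551).

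The other probes of Tfcp2l1 did not pass. A_52_P20867, made from the sequence AF311309 and given no position in the files, had log2 ratios of 0.32, 0.44 and 0.58. Its Fgfrl1-/- signals of 7.51, 6.99 and 7.27 overlapped the wildtype signals of 7.19, 6.55 and 6.69, since both pools of array 1 were the brightest of their genotype, but within each array the Fgfrl1-/- pool was higher. The mean was 0.45 ± 0.13 (SD, n = 3, 95% confidence interval 0.24 to 0.65, adjusted p = 0.0881), and 1.22 with the ratios of the scanner software.

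A_52_P516473, on chromosome 1 from 120508091 to 120508150, had log2 ratios of -0.12, 0.98 and 0.75. Its Fgfrl1-/- signals were 6.79, 7.28 and 7.48, and its wildtype signals were 6.91, 6.30 and 6.72. Array 1 went the other way from arrays 2 and 3, and the groups overlapped. The mean was 0.54 ± 0.58 (SD, n = 3, 95% confidence interval 0.0024 to 1.07, adjusted p = 0.313). It was 0.87 without array 1, 0.31 without array 2 and 1.30 with the scanner software's ratios.

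A_52_P63232, on chromosome 1 from 120506052 to 120506111, was the dimmest probe of Tfcp2l1 and was well above background on 2 of the 3 arrays in each channel. Its Fgfrl1-/- signals of 6.29, 6.36 and 6.28 lay just above its wildtype signals of 6.16, 6.28 and 6.13, and its ratios were 0.13, 0.080 and 0.15. The mean of 0.12 had a 95% confidence interval from -0.052 to 0.29 (adjusted p = 0.487) and ranged from 0.023 to 0.35 over its 14 alternatives. The probe that passed lies 6563 bases downstream of A_52_P63232 and 4524 bases downstream of A_52_P516473, measured from start to start. All 4 probes had a positive mean, and the mean of the 4 was 0.49 (adjusted p = 0.0828 in a fit with 1 value per gene name), which did not pass.

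Gata3 encodes a zinc finger transcription factor of the Wolffian duct and ureteric bud. Its probe A_52_P546363, on chromosome 2 from 9775209 to 9775268, had signals of 11.84, 12.05 and 11.93 in the Fgfrl1-/- pools and of 11.38, 11.48 and 11.65 in the wildtype pools. The groups did not overlap. The ratios were 0.45, 0.57 and 0.28, with a mean of 0.43 ± 0.14 (SD, n = 3, 95% confidence interval 0.22 to 0.64, adjusted p = 0.0953), which did not pass. Under median centring the mean was 0.093.

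Elf3 encodes an Ets factor of epithelial cells. On its probe A_51_P480241, on chromosome 1 from 137070162 to 137070221, the Fgfrl1-/- signals were 6.74, 7.05 and 7.14 and the wildtype signals 6.68, 6.68 and 6.81. The Fgfrl1-/- pool of array 1 lay within the wildtype range, and the other Fgfrl1-/- pools lay above it. The ratios of 0.065, 0.37 and 0.33 had a mean of 0.26 ± 0.17 (SD, n = 3, 95% confidence interval 0.034 to 0.48, adjusted p = 0.252), which did not pass. With the scanner software's ratios the mean was 0.52.

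**Figure D2:**
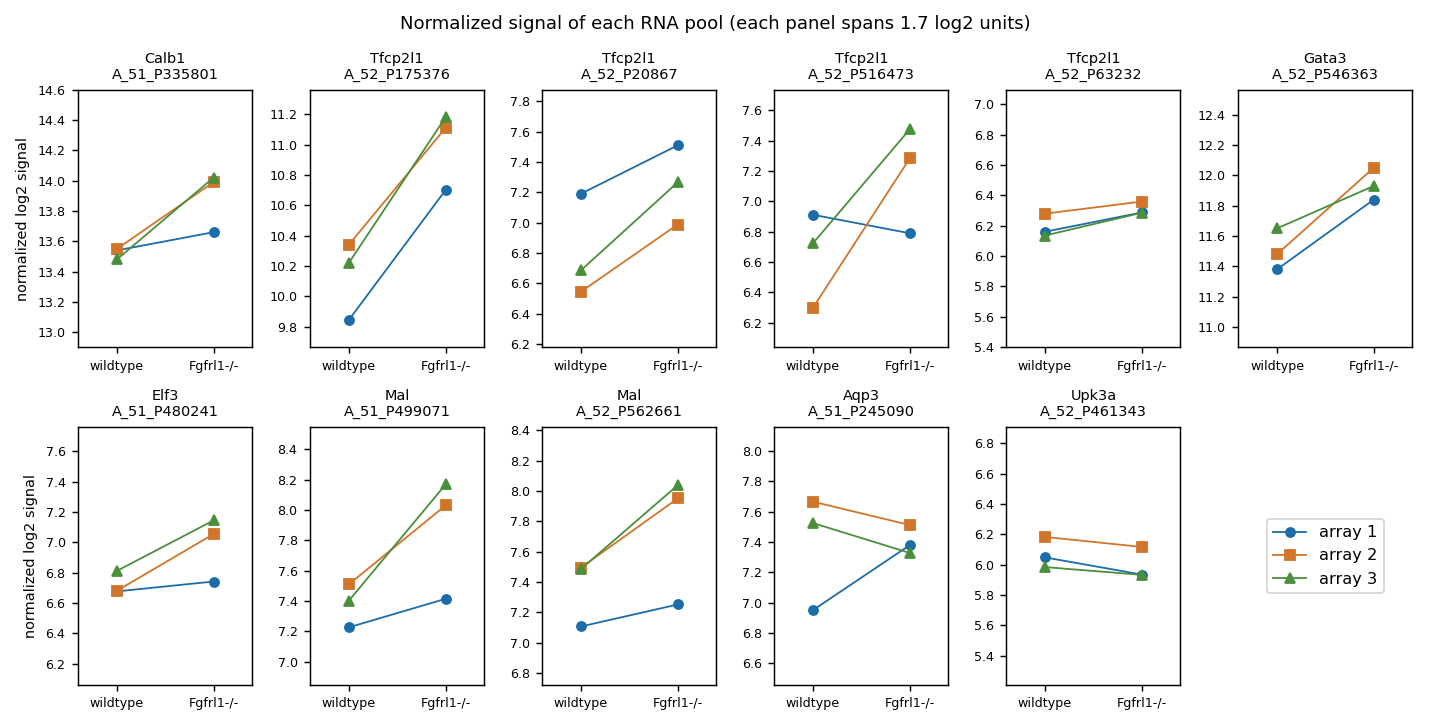
Normalized log2 signal (vertical axis) of the wildtype and the Fgfrl1-/- pool of each array, 1 panel per probe and 1 line per array, with the same height of scale in every panel. All 3 lines rise for A_52_P175376 of Tfcp2l1 (0.77 to 0.95) and for Gata3 (0.28 to 0.57), and for Aqp3 the line of array 1 rises by 0.43 while the other lines fall.

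Calb1 encodes calbindin, a calcium-binding protein of the ureteric epithelium and of later distal tubule and collecting duct cells. Its probe A_51_P335801, on chromosome 4 from 15832543 to 15832602, was printed at 10 spots of each array. The Fgfrl1-/- signals were 13.66, 13.99 and 14.02 and the wildtype signals 13.54, 13.55 and 13.48. The wildtype pools were close together, and each Fgfrl1-/- pool lay above them. The ratios were 0.12, 0.44 and 0.54, with a mean of 0.37 ± 0.22 (SD, n = 3, 95% confidence interval 0.11 to 0.62, adjusted p = 0.173), which did not pass. By the paper's in situ hybridization, done at a later age, Calb1 was seen in the ureteric bud of both genotypes. That method gives a pattern and not a level.

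The repeated spots of Calb1 set the differences between arrays beside the spread within an array. After outlier spots were left out, the 9 spots of array 1 ranged from -0.056 to 0.33 with a median of 0.079. The 8 spots of array 2 ranged from 0.33 to 0.55 with a median of 0.44, and the 8 spots of array 3 from 0.48 to 0.63 with a median of 0.52. The SD between spots was 0.144, 0.0754 and 0.0596 on arrays 1, 2 and 3. On array 1 the spots formed separate groups, in their listed order. Spots 1 to 6 lay between -0.056 and 0.088 and spots 7 to 9 between 0.28 and 0.33, and the cause was not tested. The highest spot of array 1 and the lowest of array 2 were nearly equal, and all other spots of arrays 2 and 3 lay above those of array 1. Spots of 1 array share the same RNA pools and are not replicates of the genotype.

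**Figure D3:**
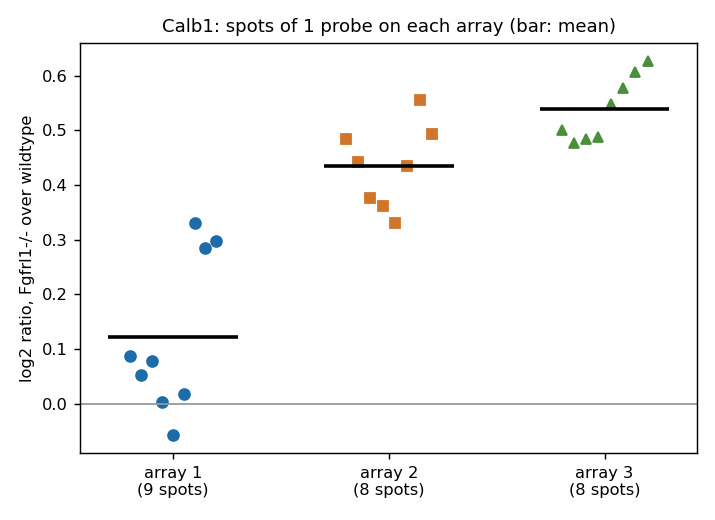
Log2 ratio of Fgfrl1-/- over wildtype (vertical axis) for each spot of the Calb1 probe on each array, with the mean of the array as a bar. The spots of array 1 lie between -0.056 and 0.33, below those of array 2 (0.33 to 0.55) and array 3 (0.48 to 0.63).

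The direction for Calb1 also rested on the normalization. With each array centred on its median in place of loess, its mean log2 ratio was -0.090 (adjusted p = 0.945). Over the brightest 10% of probes, to which Calb1 and Gata3 belong, the median ratio was 0.0040 with loess and -0.39 with median centring, whereas over all probes the medians were 0.00366 and 0.042. The loess value was above the median-centred one by 0.46 for Calb1, by 0.34 for Gata3 and by 0.28 for A_52_P175376 of Tfcp2l1, but by 0.057 and 0.054 for the probes of Mal.

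Mal encodes a membrane proteolipid that serves the transport of proteins to the apical surface of epithelial cells. Its probe A_51_P499071, for which the files give 28 bases on chromosome 2 from 127324671 to 127324698, had Fgfrl1-/- signals of 7.42, 8.03 and 8.17 and wildtype signals of 7.23, 7.51 and 7.40. Its ratios were 0.19, 0.52 and 0.77, with a mean of 0.49 ± 0.29 (SD, n = 3, 95% confidence interval 0.19 to 0.79, adjusted p = 0.141). The second probe, A_52_P562661, lies on the same chromosome from 127325178 to 127325237, with 507 bases between the starts of both.

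This second Mal probe had Fgfrl1-/- signals of 7.25, 7.95 and 8.04, wildtype signals of 7.11, 7.50 and 7.49 and ratios of 0.14, 0.46 and 0.55. Its mean was 0.38 ± 0.21 (SD, n = 3, 95% confidence interval 0.13 to 0.63, adjusted p = 0.156), and 0.59 with the scanner software's ratios. Neither probe passed. On both, the Fgfrl1-/- pool of array 1 lay within the wildtype range, and those of arrays 2 and 3 lay above all wildtype pools. Both probes had their lowest ratio on array 1 and their highest on array 3.

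Aqp3 encodes a water channel of the basolateral membrane of principal cells. Its probe A_51_P245090, on chromosome 4 from 41281600 to 41281659, had Fgfrl1-/- signals of 7.38, 7.51 and 7.33 and wildtype signals of 6.95, 7.66 and 7.52. The Fgfrl1-/- pool was the higher one on array 1 and the lower one on arrays 2 and 3. The ratios were 0.43, -0.15 and -0.20, with a mean of 0.026 ± 0.35 (SD, n = 3, 95% confidence interval -0.32 to 0.37, adjusted p = 0.963). Its sign was negative in 5 of 17 alternatives, and no direction can be given.

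Upk3a encodes a uroplakin of the urothelial plaque. The files place the 60 bases of its probe A_52_P461343 over a stretch of 902 bases, on chromosome 15 from 84849155 to 84850056. On all arrays, neither channel was well above background. The Fgfrl1-/- signals were 5.94, 6.12 and 5.93 and the wildtype signals 6.05, 6.18 and 5.98, and no fold change is given, since neither side was measured above background.

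Leaving out array 1, which is the same as keeping only the slide that held arrays 2 and 3, changed the calls most. This setting has n = 2 arrays of 1 slide, so its p-values measure only the spread between those arrays. In it, limma's test gave 12733 of all 41174 probes an unadjusted p below 0.05. Then 8 of the 11 probes, from 5 genes, were higher at an adjusted p below 0.05 by limma, beside 8.49% of all probes. These were the probes of Calb1 (0.49), Gata3 (0.42), Elf3 (0.35) and Mal (0.64 and 0.50) and 3 of Tfcp2l1 (0.86, 0.51 and 0.87). Aqp3 was at -0.18 (adjusted p = 0.121) and did not pass, nor did A_52_P63232 of Tfcp2l1 and Upk3a. Without array 2 or without array 3, 0 of all 41174 probes passed limma's test, the 11 included, with 3712 and 3141 probes at an unadjusted p below 0.05, so these settings say nothing about the 7 genes in particular. Array 1 held the lowest of the 3 ratios for 7 of the 11 probes, beside 40.3% of all probes. With 1 array on its slide, a difference between slides and one between pools cannot be told apart.

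**Figure D4:**
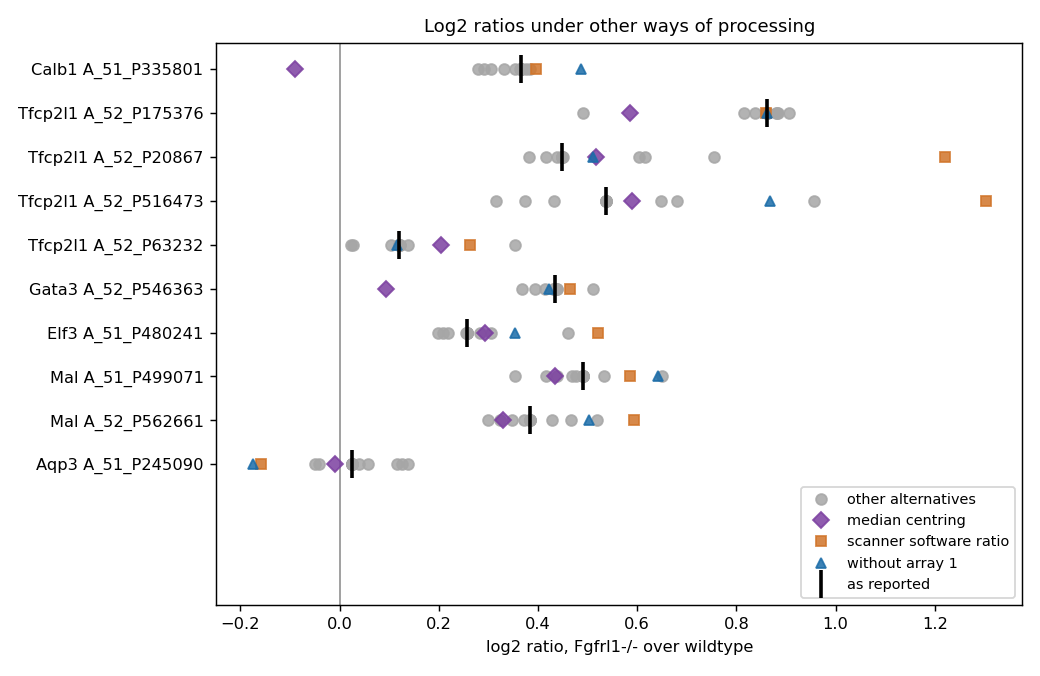
Mean log2 ratio of Fgfrl1-/- over wildtype (horizontal axis) for each probe but that of Upk3a as reported (black bar) and under each alternative way of processing (symbols), with the value for the mean of a gene's probes placed in the row of its brightest probe. Median centring takes Calb1 from 0.37 to -0.090 and Gata3 from 0.43 to 0.093, and the scanner software's ratios reach 1.22 and 1.30 for the dimmer Tfcp2l1 probes A_52_P20867 and A_52_P516473.

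The other genes of the same epithelium were read from lists of markers, with each gene represented by its brightest probe. To set beside the counts of each list, 0.289% of all probes passed as higher and 0.398% as lower. At an unadjusted p below 0.05, limma's test gave 7.69% of all probes as higher and 8.20% as lower. The share of all probes with a positive mean was not counted, and their median ratio was 0.00366. Of 20 genes of the whole ureteric epithelium, all measured and 18 well above background throughout, 0 passed limma's test in either direction, 5 were higher and 0 lower at an unadjusted p below 0.05, 16 had a positive mean and the median was 0.15. By array the median was -0.081, 0.27 and 0.21. It was 0.00078 under median centring, with 10 of 20 positive, and 0.070 without array 2. The smallest p-values were those of Krt18, a keratin of simple epithelia (0.58 ± 0.10, SD, n = 3, adjusted p = 0.0527, and 0.13 under median centring), and of Wnt9b, the ligand by which the ureteric epithelium induces nephrons (0.73 ± 0.25, SD, n = 3, adjusted p = 0.0661). Without array 1, 10 of the 20 were higher, beside 8.49% of all probes, and 0 lower, beside 10.1%.

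Of 10 genes of the ureteric stalk, 1 rose, beside 0.289% of all probes, and 0 fell, beside 0.398%, with a median of 0.26. The one that rose was Krt7, a keratin of duct epithelium, whose ratios were 0.78, 0.72 and 0.70, with a mean of 0.74 ± 0.043 (SD, n = 3, adjusted p = 0.0356). It stayed positive in all 17 alternatives, was lowest under median centring (0.44) and passed in 7 of them. Of 14 genes of the ureteric tip, 1 never clearly exceeded the background. In this list 0 rose and 5 fell, beside 0.289% and 0.398% of all probes, with a median of -0.46. The largest falls were those of Lhx1, a homeodomain factor also expressed in the first nephrons, with a mean of -1.72 (adjusted p = 0.00692), and of Cxcr4, a chemokine receptor, with -1.08 (adjusted p = 0.0346). Lhx1 also stands in the nephron list below and is counted in both lists. The others that fell, named after their values were seen, were Etv4 (-1.05), Slco4c1 (-1.02) and Wnt11 (-0.76). The count of tip genes that fell was 1 in the authors' log2 table and with dim probes left out, and 2 with quantile normalization of all channels. It was 0 with an offset of 0, with the scanner software's ratios and with 1 value per slide, where 0 of all probes passed. The counts in these settings therefore say nothing about the tip in particular. The tip median in them was -0.643, -0.549 and -0.505. Without array 1, 6 of the stalk genes rose, beside 8.49% of all probes, and 9 of the tip genes fell, beside 10.1%. The difference between the tip list and the genes described here was not tested.

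Among genes of differentiated collecting duct cells, 0 of 12 principal cell genes passed limma's test. At an unadjusted p below 0.05, 5 were higher, beside 7.69% of all probes. Of the 12, 10 had a positive mean, and the median was 0.18. Fxyd4, a regulator of the sodium pump, had 0.39 (adjusted p = 0.152) and Scnn1b, a subunit of the epithelial sodium channel, had 0.31 (adjusted p = 0.175). Without array 1, 6 of the 12 rose, beside 8.49% of all probes, and 0 fell, beside 10.1%. Of 10 intercalated cell genes, 4 were not well above background on any array. In this list 0 rose and 1 fell, beside 0.289% and 0.398% of all probes, with a median of 0.022. The one that fell was Car2, a carbonic anhydrase, with a mean of -0.68 ± 0.090 (SD, n = 3, adjusted p = 0.0416). It was negative in all 17 alternatives and passed in 8, not under median centring (-0.89). At an unadjusted p below 0.05, limma's test gave 2 intercalated cell genes as higher, beside 7.69% of all probes. It gave 2 as lower, Car2 included, beside 8.20%. Of the 10, 5 had a positive mean. Of 11 urothelial genes, 10 were measured and 0 passed limma's test, with a median of -0.0062. At an unadjusted p below 0.05, 1 was higher and 1 lower, beside 7.69% and 8.20% of all probes. Without array 1, 1 urothelial gene and 1 intercalated cell gene rose and 1 of each fell, beside 8.49% and 10.1% of all probes. Krt5, a keratin of basal cells, had ratios of 0.32, 1.81 and 0.84 (adjusted p = 0.169), and Pparg, a nuclear receptor, had a mean of -0.25 (adjusted p = 0.184).

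**Figure D5:**
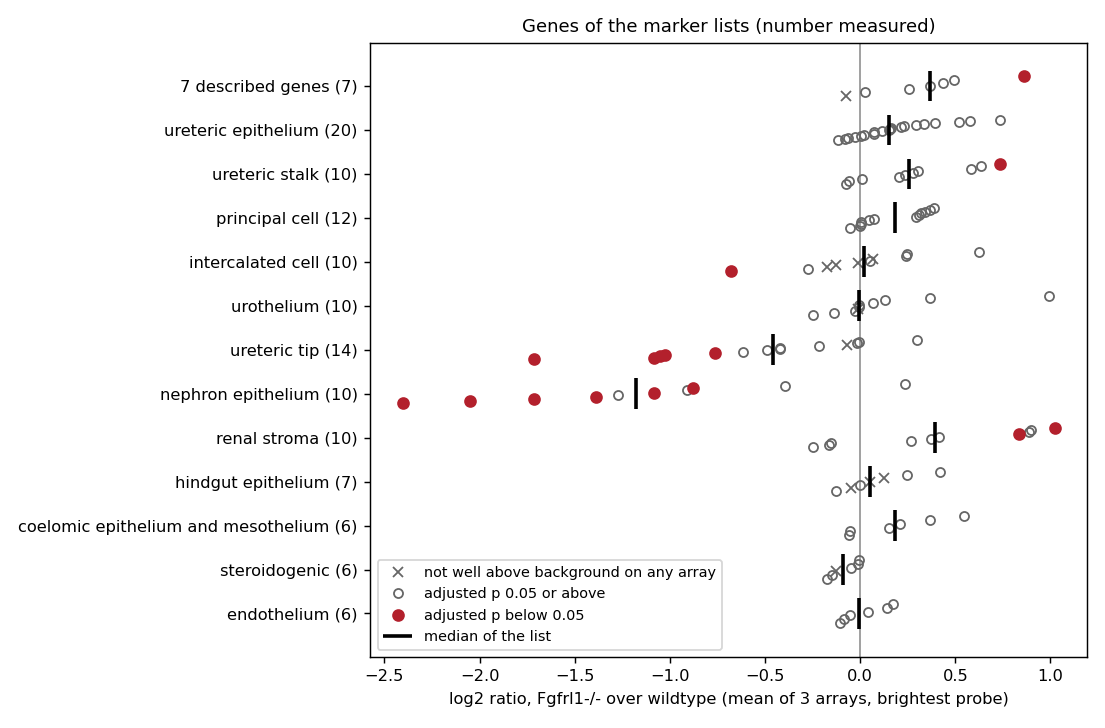
Mean log2 ratio of Fgfrl1-/- over wildtype (horizontal axis) for each gene (circle) of the 7 genes described here and of 12 marker lists (rows), with filled red circles for an adjusted p below 0.05, crosses for genes not well above background on any array and black bars for the median. The medians of the ureteric epithelium (0.15), stalk (0.26) and principal cell (0.18) lists lie to the right of 0, and those of the tip (-0.46) and nephron (-1.18) lists to the left.

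Of the other cell types that a rudiment or its dissection could hold, genes of the nephron epithelium and the stroma passed the test. Of 10 genes of the nephron epithelium, 6 fell and 0 rose, beside 0.398% and 0.289% of all probes, with a median of -1.18. Lhx1, also of the tip list, is among the 6. The largest falls were those of the ligands Wnt4 (-2.40, adjusted p = 0.0201) and Fgf8 (-2.05, adjusted p = 0.0259). Of 10 stromal genes, 2 rose and 0 fell, beside 0.289% and 0.398% of all probes, with a median of 0.39 that was 0.012 under median centring. These were Pdgfra, a growth factor receptor (1.02, adjusted p = 0.0274), and Col1a1, a chain of collagen (0.84, adjusted p = 0.0416). Neither passed under median centring, where Col1a1 was at 0.29, and they passed in 11 and 8 of the 17 alternatives. By the paper's qPCR at E12.5, Col1a1 was about equal in both genotypes. With an offset of 0, the scanner software's ratios or 1 value per slide, 0 of all probes passed limma's test, the genes of both lists included. The nephron median in these settings was -1.72, -1.85 and -1.06, and the stromal median 0.391, 0.363 and 0.478. Without array 1, 9 nephron genes fell and 1 rose, and 6 stromal genes rose and 2 fell. Over all probes, 8.49% rose and 10.1% fell in that setting. Without array 2 or without array 3, 0 genes of any list passed limma's test, as 0 of all probes did. The part of such a shift between cell types in the ratios of the 7 genes was not tested.

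For 4 further lists limma's test passed 0 genes in either direction. At an unadjusted p below 0.05, 1 hindgut gene and 2 coelomic genes were higher, beside 7.69% of all probes. Of the steroidogenic and endothelial genes, 0 reached that threshold. Without array 1, 1 hindgut gene and 1 coelomic gene rose and 1 steroidogenic gene fell, beside 8.49% and 10.1% of all probes. The hindgut epithelium, 7 genes of which 3 were not well above background on any array, had a median of 0.054. In it Lgals4, a galectin of the gut, had 0.42 (adjusted p = 0.190) and Gata4 had 0.24 (adjusted p = 0.443). The coelomic epithelium and mesothelium, 6 genes, had a median of 0.18, with Msln, the mesothelin gene, at 0.54 (adjusted p = 0.108) and Nkain4 at 0.21 (adjusted p = 0.263), which was negative under median centring (-0.066). The steroidogenic list, 6 genes, had a median of -0.088, with Cyp17a1, an enzyme of steroid synthesis, at -0.15 (adjusted p = 0.538) and Cyp11a1, another, not well above background on any array and given no ratio. The endothelium, 6 genes, had a median of -0.0051, with the adhesion molecule Pecam1 at 0.17 (adjusted p = 0.398) and the receptor Tie1 at 0.14 (adjusted p = 0.500).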

How the data were processed

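The scanner files of 3 arrays, as deposited, come from Agilent Feature Extraction, with 9.5.3.1 as the version in the header of array 1, 10.5.1.1 in those of arrays 2 and 3, and version 10 in the submitters' processing notes. The authors deposited in them, per channel, the intensity of every spot and the local background around it, besides a log10 ratio of wildtype over Fgfrl1-/- that the software made from background-subtracted, dye-normalized signals. A log2 ratio per probe comes in another deposited table, made with R and Bioconductor by steps that are not stated. Set against the scanner ratios it had the opposite sign (r between -0.718 and -0.705 by array), so it was read as Fgfrl1-/- over wildtype, and its centring is unknown.

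Median intensities were corrected with limma's normexp (offset 50), normalized by loess within each array with control spots at weight 0, cleared of 107, 113 and 138 outlier spots and averaged per probe. For the signals of single pools only, the average signal was also quantile normalized between arrays. Names and mm8 positions are those in the file of array 1, and exons or untranslated regions were not assigned. The log2 ratio was tested against 0 with lmFit and eBayes (limma 3.58.1, R 4.3.3) over all 41174 probes, 2-sided, with Benjamini-Hochberg adjustment at 0.05, after the steps were tested on simulated data. The pools of an array were paired through the ratio. Separate RNA preparations are given for each pool, and p-values measure the spread between these pools and arrays. Depth does not apply to arrays, and their number and the brightness over background limit precision. The test was repeated under 17 alternatives, 1 of them, quantile normalization of all channels, chosen after seeing the data.

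Named are every probe of the 7 genes, Fgfrl1, and from each of 12 marker lists the genes that passed, the 2 largest rises and falls where over 4 passed, or the 2 with the smallest p where none passed. Lists are the ureteric epithelium, tip and stalk, principal cell, intercalated cell, urothelium, hindgut epithelium, coelomic epithelium and mesothelium, nephron epithelium, renal stroma, steroidogenic and endothelium lists. The 7 genes and the lists were chosen with earlier results of these data known. Genes were not ranked by likeness, since 3 ratios per probe are too few.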

Additional observations from a re-analysis of the deposited data

How the results depend on the processing

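Under the 17 alternatives the median log2 ratio of the 11 probes lay between 0.29 and 0.52, with Tfcp2l1 counted by 4 probes. Over the 7 genes, by their brightest probes, the median was 0.093 under median centring and between 0.28 and 0.47 otherwise. A_52_P175376 of Tfcp2l1 was higher in all of them but lost its call with median centring (0.59), a normexp offset of 0 (0.88), the ratios of the scanner software (0.86), dim probes left out (0.86), the mean of its gene's probes (0.49), 1 value per slide (0.86) and the authors' log2 table (0.88), which each left 0 of the 11 probes passing. With 1 array left out in turn its ratio was 0.81 to 0.91, the number of probes passing was 0 to 8, and over all probes 0 to 3494 passed as higher and 0 to 4172 as lower. As reported, 119 of all probes were higher and 164 lower. These counts were 0 and 0 with an offset of 0, with the scanner software's ratios and with 1 value per slide, where limma gave 4852, 6118 and 3449 probes at an unadjusted p below 0.05. They were 2 and 91 under median centring, 7 and 34 without dim probes (24894 tested), 4 and 32 in the authors' table, and 22 and 60 with quantile normalization of all channels, which was chosen after seeing the data. The higher count was 72 without background subtraction and 225 in the separate-channel fit, which has no replicate block and changed no call among the 11 probes. Signs turned under median centring for Calb1 (-0.090), and for Aqp3 under no background subtraction (-0.051), the scanner software's ratios (-0.16), median centring (-0.0098), the authors' table (-0.041) and without array 1 (-0.18), against 0.14 without array 3. The cause of these changes was not tested. The mean spot signal, given for array 1 only, was not run, the slide as a random block could not be fitted, and quantile normalization of the average signal leaves ratios as they are. Brightness over background limits Upk3a and A_52_P63232 of Tfcp2l1, and 3 arrays limit all values.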
